A study of Homo sapiens with 12 samples.

Results

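The 39 genes described here act in the G2 phase of the cell cycle and in mitosis, and many of them build or steer the mitotic spindle. They were chosen as the rows of the raw count table whose Ensembl identifier, with its version removed, maps to a symbol on a fixed list of such genes, and all 39 were found among 70116 rows. Of these, 38 had enough counts to be tested, among 16197 genes tested in all. The exception was SPC25, a subunit of the kinetochore complex that holds microtubules, which had 8 counts over all 12 libraries, with 0 in 8 of them and at most 4 in any other.

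RNA was sequenced from MiaPaCa-2, a human cell line derived from a pancreatic carcinoma, transfected with small interfering RNAs (siRNAs), short duplexes that lower a matching transcript. The 4 groups were siControl, siSLC25A1, siACLY and siACO1, each with 3 libraries, and they share the cell line and the transfection. SLC25A1 is the mitochondrial citrate carrier, ACLY splits citrate in the cytosol to acetyl-CoA and oxaloacetate, and ACO1 is the cytosolic aconitase, which can also bind RNA as an iron regulatory protein. The series title places the knockdowns in a study of cytosolic citrate and ferroptosis in pancreatic cancer, and the comparisons below give what each knockdown did to transcripts of cell division. The labels give neither the sequences of the siRNAs nor how many were used for a target, and neither the time nor the nutrients at harvest, and they do not say that the replicates were separate cultures. The p-values therefore measure only the spread between these libraries, which may be technical.

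In a dividing cell, cyclin A and cyclin B switch on the kinase CDK1, the chromosomes condense, and kinesin motors and other microtubule proteins assemble the spindle. The spindle checkpoint then holds back the anaphase-promoting complex until the kinetochores of all chromosomes are attached, after which cyclin B and securin are destroyed and the cell divides. The transcripts of these genes rise together late in the cycle, under FOXM1, B-MYB and the MuvB complex, and several of their proteins are used as markers of proliferation in tumours. In RNA from a whole culture, a smaller share of cells in G2 and mitosis and less transcript in each such cell cannot be told apart.

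Libraries held between 24159424 and 43792811 counts. Levels are counts per 1000000 (CPM) scaled by the trimmed mean of M values, and fold changes are on the log2 scale. Each targeted transcript was low in its own group: SLC25A1 was at 134 ± 0.691 CPM (mean ± SD, n = 3) in siControl and 11.7 ± 1.18 in siSLC25A1, ACLY at 499 ± 7.55 and 36.1 ± 0.504 in siACLY, and ACO1 at 45.0 ± 1.57 and 1.68 ± 0.331 in siACO1. The keratins KRT8, KRT18 and KRT19 and the mesenchymal gene VIM were expressed in every library, from 47.2 CPM (KRT19) to 4813 CPM (VIM), whereas EPCAM and CDH1, further epithelial markers, had at most 2 counts. The acinar, endocrine and leukocyte genes PRSS1, CPA1, AMY2A, INS, GCG and PTPRC had 0 counts, and the endothelial and fibroblast genes PECAM1, COL1A1 and DCN at most 9.

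Many promoters of this gene class carry a cell-cycle homology region (CHR), a short element bound by the MuvB complex, near the start of transcription, often with CCAAT boxes upstream. The promoter windows of RefSeq, from 250 bases before to 50 bases after each start on GRCh38.p14, were searched on both strands for TTTGAA and TTCGAA as the CHR and for CCAAT. A CHR match and a CCAAT match can share 1 base at their ends. Windows were found for 33 of the 39 members, and not for AURKA, TPX2, TTK, BIRC5, UBE2C and FOXM1. A CHR match lay in the windows of 26 members (78.8%), against 19.5% of 27305 genes with a window, and a CCAAT match in those of 27 (81.8%), against 39.7%. Both were present for 22 members (66.7%), against 7.85%. A gene can have several RefSeq starts (35116 windows in all), and these shares count a gene if any of its windows held the match. For the stretches below, the window whose match lay nearest to its start was taken. Stretches of 30 bases around that match are shown for members whose levels are described below, so that the element and its neighbours can be compared. Each is on the strand of its gene with that match in capitals.

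PLK1: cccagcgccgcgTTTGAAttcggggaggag
CDC25C: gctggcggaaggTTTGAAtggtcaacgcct
MKI67: tcttcgttttcgTTTGAAttgggcgggcgc
ANLN: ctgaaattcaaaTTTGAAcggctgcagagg
KIF23: ctgattggcccgTTTGAAatgcgccaggcg
KIF11: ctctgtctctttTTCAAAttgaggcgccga
BUB1: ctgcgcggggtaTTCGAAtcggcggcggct
MAD2L1: tgcgtcgttactTTTGAAacgcttggcggg

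These stretches lie at chr16:23678848-23678877 (+ strand) for PLK1, chr5:138331817-138331846 (- strand) for CDC25C and chr10:128126435-128126464 (- strand) for MKI67. They lie at chr7:36389830-36389859 (+ strand) for ANLN, chr15:69414282-69414311 (+ strand) for KIF23 and chr10:92593090-92593119 (+ strand) for KIF11, whose TTCAAA is TTTGAA read on the other strand. The ANLN stretch holds a second match, also TTCAAA, at -26, directly before the one in capitals and left in lower case. For BUB1 and MAD2L1 they lie at chr2:110678045-110678074 and chr4:120066807-120066836, both on the - strand. Counted from the first transcribed base at the chosen start as 1, the motif began at -29 in PLK1 and MKI67, -30 in CDC25C and -28 in KIF11. It began at -20 in ANLN, -55 in KIF23, 2 in BUB1 and 25 in MAD2L1. Where a gene had several starts, its position depends on that choice. PLK1, a kinase, and MKI67, a coat of mitotic chromosomes, were the only pair of the 8 with the same position. CCNA2, CCNB1, KIF20A, KIF2C, AURKB, PTTG1 and CENPE held no match to these letters in their windows.

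**Figure D1:**
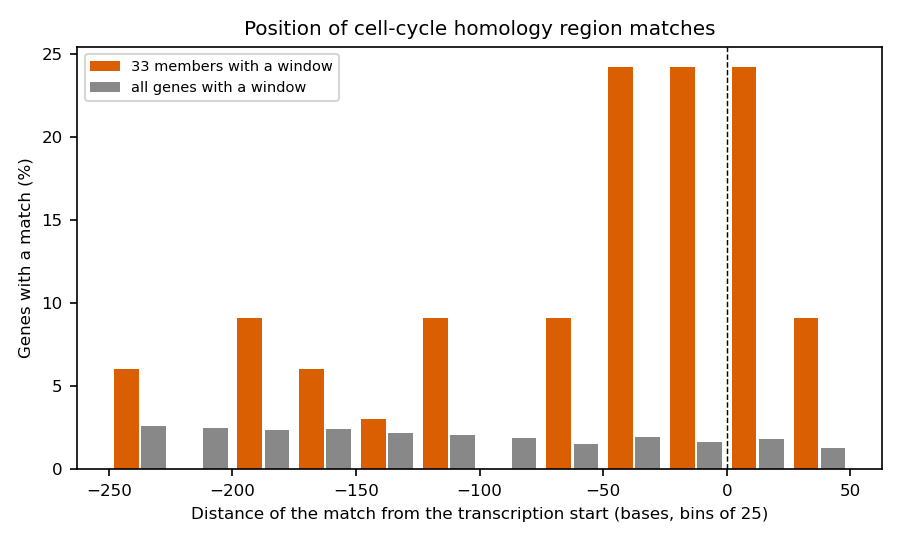
Share of genes with a CHR match starting in each bin of 25 bases (vertical axis, %) by distance from the transcription start (horizontal axis, bases), for the 33 members with a window (orange) and all 27305 genes with one (grey). In each of the 3 bins from 50 bases before to 24 bases after the start, 24.24% of members had a match, against 1.604% to 1.926% of all genes.

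Calls were also counted for members with and without a CHR match. In siSLC25A1 against siControl, 14 of 25 tested members with a match and 4 of 7 without one were higher, and in siACLY 13 of 25 and 3 of 7 were lower. Among 656 other tested genes with both a CHR and a CCAAT match, 15.4% were higher in siSLC25A1, against 12.2% of all 10649 other tested genes with a window. In siACLY 20.3% of those 656 genes were lower, against 21.3% of the 10649. These shares are descriptions, and no test of the difference was made.

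In the fit of all 12 libraries, the members that changed were all higher after knockdown of SLC25A1 and mostly lower after knockdown of ACLY. After knockdown of ACO1 they changed in both directions. A gene was called changed at an adjusted p under 0.05 in edgeR's quasi-likelihood F test with Benjamini-Hochberg adjustment over all genes tested, and all adjusted p-values of single genes below are from that fit. In siSLC25A1 against siControl, 20 of 38 members were called, all 20 higher and 0 lower, against a background of 19.6% of all genes tested (10.3% higher and 9.27% lower). Their log2 fold changes ran from -0.11 to 0.46 with a median of 0.18, and 37 of 38 were positive. The median over all genes tested was -0.00447.

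In siACLY against siControl, 22 of 38 members were called, 2 higher and 20 lower, against 36.7% of all genes tested (18.4% higher and 18.3% lower). The median of the 38 was -0.15, with a range from -0.40 to 0.24, and 28 were negative, while all genes tested had a median of 0.00766. In siACO1 against siControl, 16 of 38 were called, 11 higher and 5 lower, against 37.1% of all genes tested (17.8% higher and 19.3% lower). The share of members called there, 42.1%, lay near the background, and the median was 0.04 with a range from -0.80 to 0.35, against 0.00632 over all genes tested. That median turned to -0.00958 without siACO1 replicate 2, and it was 0.09 without replicate 3 or with library totals in place of trimmed means. The 3 comparisons use the same 3 siControl libraries, so their values are given side by side and no overlap between them is counted. With library totals, the calls of FOXM1, ECT2, KIF23, NUF2, TOP2A and TTK in siACLY, BUB1 in siACO1 and KIF14 in siSLC25A1 were lost. CENPE, CCNB2, HMMR and ASPM were not called against siControl in any knockdown. Nor were NUSAP1 and PRC1, whose counts were low and uncertain, as described below.

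**Figure D2:**
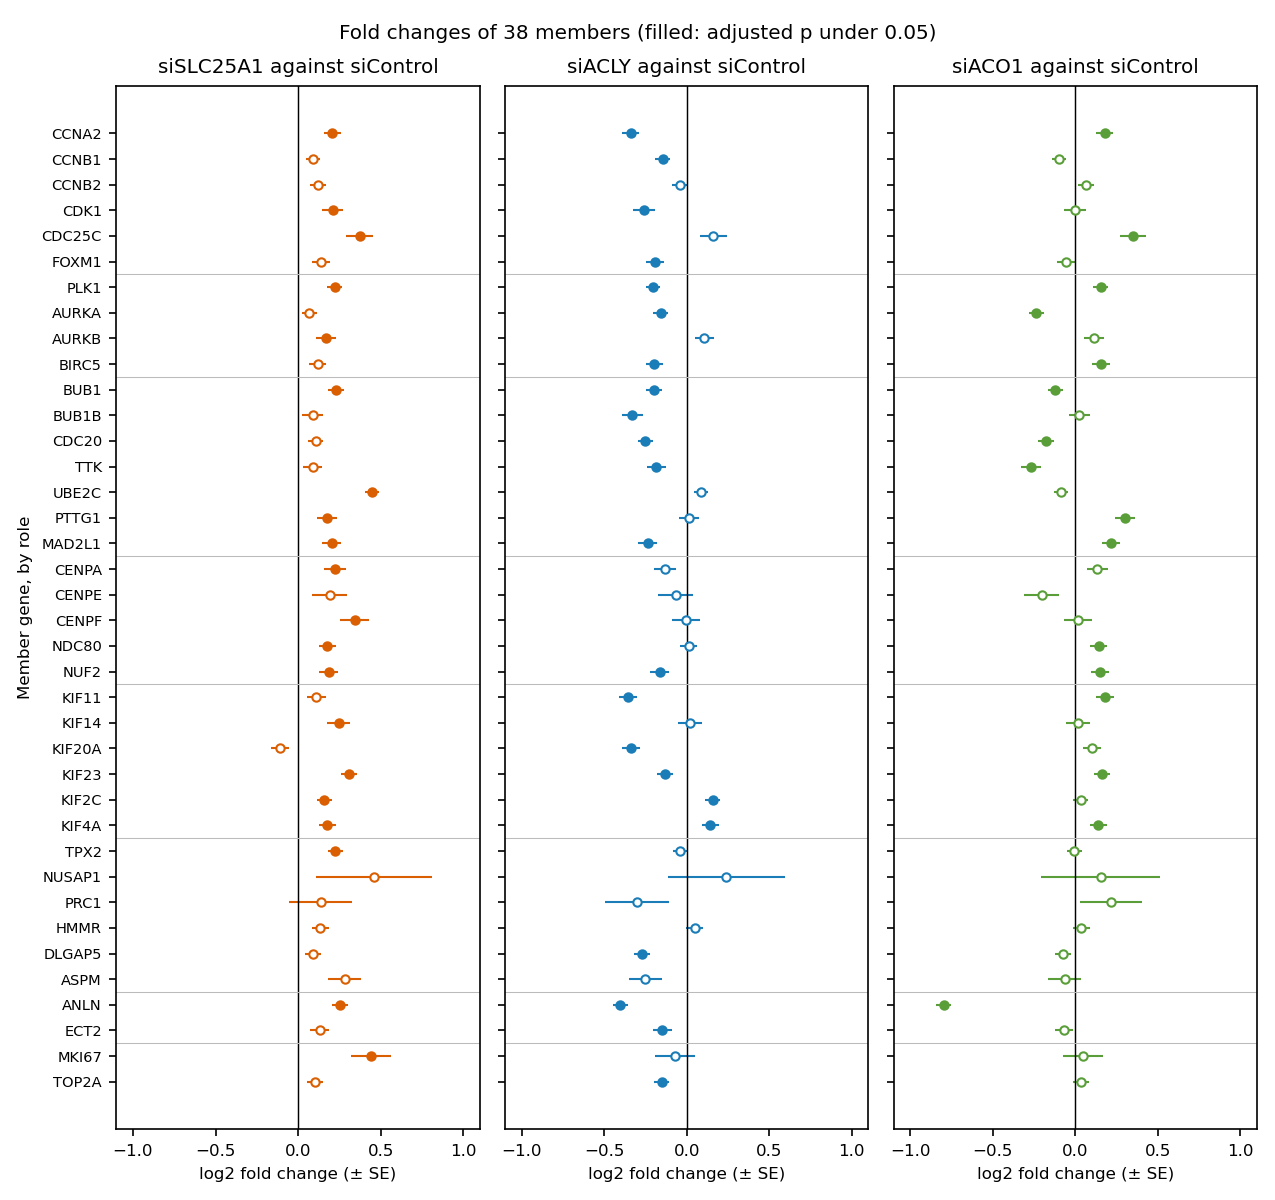
Log2 fold change with its standard error (horizontal axis) of the 38 tested members, grouped by role with grey lines between roles (vertical axis), in each knockdown against siControl. Filled points have an adjusted p under 0.05; in siSLC25A1 20 are filled, all to the right of 0, in siACLY 20 are filled to the left and 2 to the right, and in siACO1 11 to the right and 5 to the left, with ANLN at -0.80.

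Differences between single libraries touch these counts. Relative to the siControl mean, the median of the 38 members was 0.29 in siSLC25A1 replicate 1 and 0.12 in each of replicates 2 and 3, and replicate 1 was the highest of its 3 libraries for 36 of 38 members. Its G1/S and replication genes were high as well, with a median of 0.17 against -0.03 and -0.05 in its fellows. Without this library, 8 members were called in siSLC25A1 against siControl, 7 of them higher (UBE2C, CDC25C, KIF23, ANLN, BUB1, PLK1 and TPX2) and 1 lower (KIF20A), against 16.2% of all genes tested, and the median was 0.13. Leaving out siControl replicate 1, 2 or 3 gave 13, 11 and 12 members, all higher, against 13.9%, 14.8% and 14.4% of all genes tested. The 7 higher members just named kept their call under each of the 6 leave-outs.

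In siACLY the medians of replicates 1 to 3 were -0.06, -0.16 and -0.22, and replicate 1 was the highest of its group for 36 members. In siACO1 they were 0.06, 0.09 and 0.01. There, replicate 3 stood apart by transcript length, with a Spearman correlation of -0.378 between exon length and its deviation from its fellows across 12354 genes, which are not independent. The same correlation over 37 members was -0.757, and the long members MKI67, CENPF, CENPE and ASPM were low in that library. What sets these libraries apart, and its part in the results, was not tested.

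**Figure D3:**
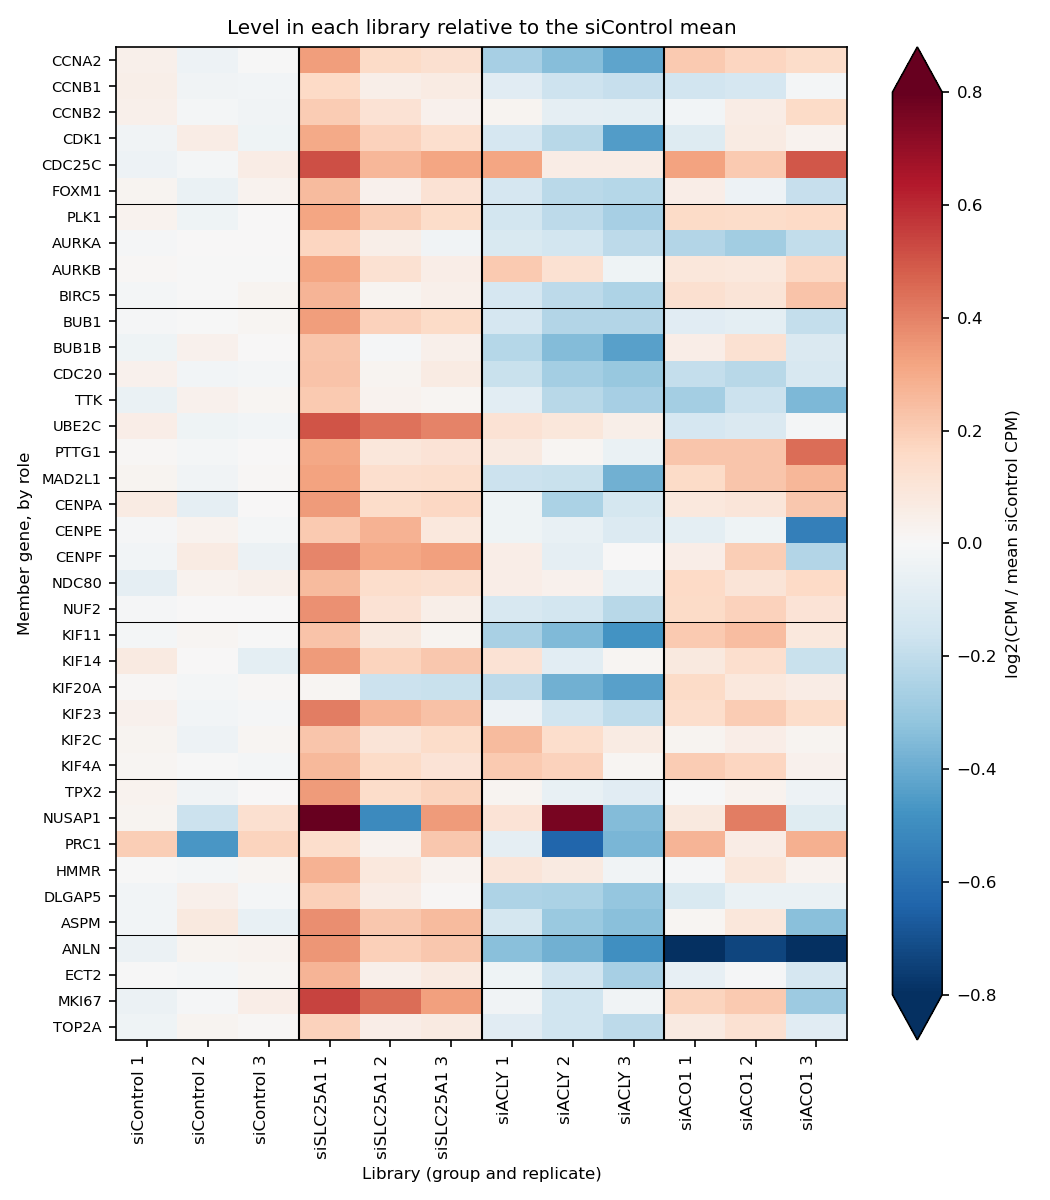
Level of each of the 38 tested members (rows, by role) in each of the 12 libraries (columns), as log2 of CPM over the mean siControl CPM; red is higher, blue is lower, and the colours saturate at 0.8. The first siSLC25A1 column is the reddest of its group, the siACLY columns are mostly blue, and ANLN is deep blue in the 3 siACO1 columns.

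Among the genes of mitotic entry, 3 of 6 were higher in siSLC25A1, 4 of 6 were lower in siACLY, and 2 of 6 were higher in siACO1. The counts by role stand against the background given above. It was 10.3% higher and 9.27% lower in siSLC25A1, 18.4% and 18.3% in siACLY, and 17.8% and 19.3% in siACO1. In siACO1 the 33.3% of mitotic entry genes called lay near the 37.1% of all genes tested. CCNA2 (cyclin A2, chr4:121816444-121823933 on GRCh38, GENCODE 29), which activates CDK2 and CDK1 ahead of mitosis, was at 105, 99.0 and 101 CPM in the siControl libraries, 128, 113 and 111 in siSLC25A1, 84.7, 80.2 and 75.8 in siACLY, and 118, 115 and 113 in siACO1. All siACLY libraries lay below siControl, and those of the other knockdowns above it. CCNA2 rose by 0.21 ± 0.05 (SE) in siSLC25A1 (adjusted p = 0.00344), fell by 0.34 ± 0.05 in siACLY (adjusted p = 4.63e-06) and rose by 0.18 ± 0.05 in siACO1 (adjusted p = 0.00616). Without siSLC25A1 replicate 1 its rise there was 0.14 (adjusted p = 0.0551).

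CDK1 (chr10:60778331-60794852), the kinase that drives mitosis, was at 105, 112 and 104 CPM in siControl, 132, 122 and 117 in siSLC25A1, 97.4, 91.7 and 78.4 in siACLY, and 99.6, 112 and 109 in siACO1. The siSLC25A1 libraries lay above and the siACLY libraries below every control, and siACO1 overlapped siControl. Its changes were 0.21 ± 0.07 (adjusted p = 0.0283) and -0.26 ± 0.07 (adjusted p = 0.00407). The rise was not called without siSLC25A1 replicate 1 (0.16, adjusted p = 0.147), without replicate 2 of that group, or without siControl replicate 1 or 3. CCNB1 (cyclin B1), the main mitotic cyclin, was at 338, 321 and 323 CPM in siControl, 365, 338 and 342 in siSLC25A1, 307, 291 and 288 in siACLY, and 294, 298 and 324 in siACO1. Only siACLY lay wholly below siControl, with a change of -0.15 ± 0.04 (adjusted p = 0.00935) that was not called without siControl replicate 1.

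CDC25C, a phosphatase that removes the inhibitory phosphates from CDK1, was at 22.8, 23.2 and 24.4 CPM in siControl, 33.5, 28.3 and 29.2 in siSLC25A1, 29.2, 24.4 and 24.4 in siACLY, and 29.3, 27.1 and 33.1 in siACO1. Every siSLC25A1 and siACO1 library lay above every control. It rose by 0.37 ± 0.08 in siSLC25A1 (adjusted p = 0.00141) and by 0.35 ± 0.08 in siACO1 (adjusted p = 0.00113), and these calls stood under each leave-out. FOXM1, a transcription factor of late cell-cycle genes, was at 269.9, 257 and 271 CPM in siControl, 317, 272 and 288 in siSLC25A1, 242, 229 and 227 in siACLY, and 275, 259 and 234 in siACO1. It fell by 0.19 ± 0.06 in siACLY (adjusted p = 0.00851), where all 3 libraries lay below siControl, and its value in siSLC25A1 was 0.14 ± 0.05 (adjusted p = 0.0832). CCNB2 (cyclin B2) had values of 0.12, -0.04 and 0.07 in the 3 comparisons and was called in none.

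Of the mitotic kinases and survivin, PLK1 (chr16:23677656-23690367), which acts in centrosome maturation, spindle assembly and cytokinesis, was at 167, 159 and 164 CPM in siControl, 204, 187 and 181 in siSLC25A1, 148, 142 and 136 in siACLY, and 182, 181 and 183 in siACO1. No knockdown library lay within the range of the controls. PLK1 rose by 0.22 ± 0.04 in siSLC25A1 (adjusted p = 0.000452), fell by 0.20 ± 0.04 in siACLY (adjusted p = 0.000561) and rose by 0.15 ± 0.04 in siACO1 (adjusted p = 0.00647). AURKA, the spindle pole kinase activated by TPX2, was at 145, 147 and 147 CPM in siControl, 165, 152 and 144 in siSLC25A1, 135, 133 and 127 in siACLY, and 124, 121 and 128 in siACO1. It was lower in siACLY (-0.16 ± 0.05, adjusted p = 0.00688) and in siACO1 (-0.24 ± 0.05, adjusted p = 0.000111), with every library of both groups below every control.

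BIRC5 (survivin), a subunit of the chromosomal passenger complex, was at 183, 185 and 188 CPM in siControl, 224, 188 and 191 in siSLC25A1, 169, 160.0 and 156 in siACLY, and 202, 199 and 217 in siACO1. It fell by 0.20 ± 0.05 in siACLY (adjusted p = 0.00549) and rose by 0.15 ± 0.05 in siACO1 (adjusted p = 0.0242), a rise not called without any 1 of the siControl libraries or without siACO1 replicate 3. In siSLC25A1 its replicate 1 stood above the other libraries, and the value was 0.12 ± 0.05 (adjusted p = 0.13). AURKB, the kinase of that complex, was higher in siSLC25A1 (0.17 ± 0.06, adjusted p = 0.0457), a call lost in 5 of the leave-outs, namely each siControl library and siSLC25A1 replicates 1 and 2. Without replicate 1 the AURKB value was 0.09.

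**Figure D4:**
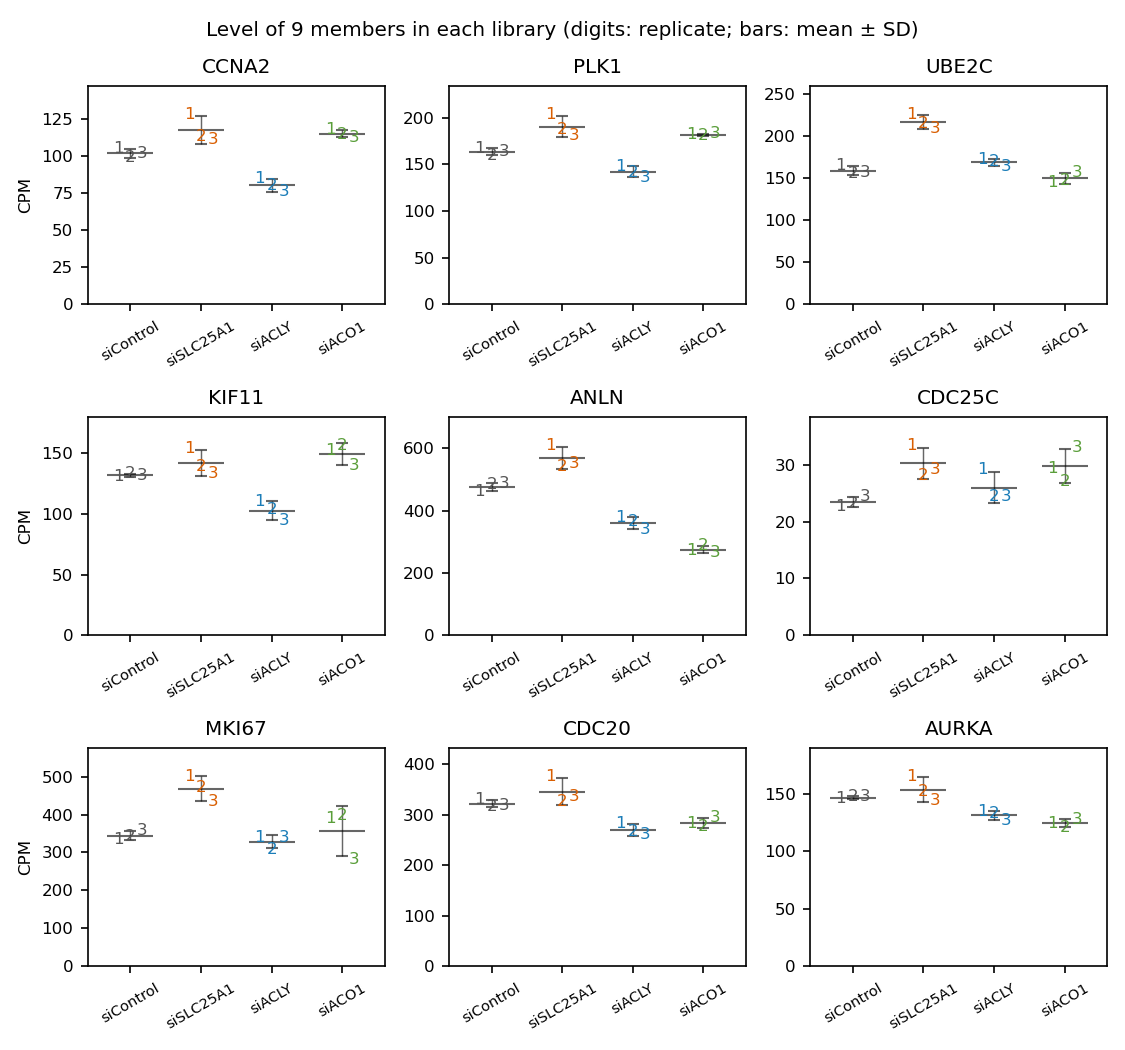
CPM (vertical axes, from 0) of 9 members in each library by group; digits mark the replicate, and bars give mean ± SD over 3 libraries. ANLN falls from 476 in siControl to 274 in siACO1, UBE2C is highest in siSLC25A1, CCNA2 and KIF11 are lowest in siACLY, and MKI67 replicate 3 of siACO1 lies at 282, below its fellows.

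The spindle checkpoint and anaphase genes held 4 of 7 higher in siSLC25A1, 5 of 7 lower in siACLY, and 2 higher and 3 lower of 7 in siACO1. UBE2C (chr20:45812576-45816957), the ubiquitin-conjugating enzyme of the anaphase-promoting complex, was at 165, 156 and 157 CPM in siControl, 226, 215 and 209.7 in siSLC25A1, 173, 169 and 164 in siACLY, and 145, 147 and 157 in siACO1. Every siSLC25A1 library lay above every other library. Its rise of 0.45 ± 0.04 (adjusted p = 6.32e-09) had the lowest adjusted p of the 38 members in that comparison, and without siSLC25A1 replicate 1 it was 0.41 (adjusted p = 9.98e-08). In siACLY and siACO1 its values were 0.08 and -0.09, not called.

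BUB1, a checkpoint kinase at kinetochores, was at 153, 154 and 156 CPM in siControl, 194, 175 and 172 in siSLC25A1, 141, 131 and 131 in siACLY, and 145, 146 and 135 in siACO1. It rose by 0.23 ± 0.05 in siSLC25A1 (adjusted p = 0.000587), fell by 0.20 ± 0.05 in siACLY (adjusted p = 0.00123) and fell by 0.12 ± 0.05 in siACO1 (adjusted p = 0.0427), and the last call was lost without any 1 of the siControl libraries or without siACO1 replicate 3. MAD2L1, which is loaded onto CDC20 to hold back anaphase, was at 78.2, 75.5 and 77.6 CPM in siControl, 96.4, 84.7 and 84.9 in siSLC25A1, 68.6, 68.2 and 59.1 in siACLY, and 85.6, 89.9 and 92.7 in siACO1. It stood above the controls in siSLC25A1 (0.20 ± 0.06, adjusted p = 0.00964) and siACO1 (0.21 ± 0.06, adjusted p = 0.00292) and below them in siACLY (-0.24 ± 0.06, adjusted p = 0.0014). The siSLC25A1 call was lost without its replicate 1 (0.14, adjusted p = 0.108) or siControl replicate 2. BUB1B (BUBR1), another part of the checkpoint complex, was at 69.4, 72.6 and 71.1 CPM in siControl, 82.7, 70.7 and 73.1 in siSLC25A1, 60.8, 55.9 and 52.5 in siACLY, and 73.8, 77.3 and 65.5 in siACO1. It fell in siACLY (-0.33 ± 0.06, adjusted p = 0.000265), and the other 2 knockdowns overlapped siControl.

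TTK (MPS1), the kinase that starts checkpoint signalling, was at 55.3, 58.8 and 58.0 CPM in siControl, 66.3, 58.5 and 58.1 in siSLC25A1, 54.2, 49.2 and 47.7 in siACLY, and 47.4, 50.8 and 44.8 in siACO1. Its changes of -0.18 ± 0.06 in siACLY (adjusted p = 0.0159) and -0.27 ± 0.06 in siACO1 (adjusted p = 0.000736) were called, the first of them not without siControl replicate 2 or siACLY replicate 2 or 3. CDC20, the activator of the anaphase-promoting complex, was at 329.5, 317 and 319 CPM in siControl, 376, 326 and 336 in siSLC25A1, 284, 267 and 260.2 in siACLY, and 282, 276 and 295 in siACO1. It fell by 0.25 ± 0.05 in siACLY (adjusted p = 8.94e-05) and by 0.18 ± 0.05 in siACO1 (adjusted p = 0.00315), but 20.3% of its 31-base stretches also occur in transcripts elsewhere, so its counts are uncertain. PTTG1 (securin), the inhibitor of separase, was at 109.9, 108 and 109 CPM in siControl, 135, 116 and 118 in siSLC25A1, 115, 110.3 and 105 in siACLY, and 127, 127 and 149 in siACO1. All siACO1 libraries stood above siControl (0.30 ± 0.06, adjusted p = 0.000315), and the rise of 0.17 ± 0.06 in siSLC25A1 (adjusted p = 0.044) was lost without its replicate 1, where it was 0.10, or without any 1 control.

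At the kinetochore and centromere, 4 of 5 tested members were higher in siSLC25A1, 1 was lower in siACLY and 2 were higher in siACO1. The 20% called in siACLY lay below the 36.7% of all genes tested, and the 40% in siACO1 near the 37.1%. NUF2, a subunit of the NDC80 complex that binds microtubules, was at 85.5, 86.0 and 86.1 CPM in siControl, 111, 93.0 and 88.8 in siSLC25A1, 78.6, 77.6 and 73.6 in siACLY, and 95.6, 97.7 and 92.6 in siACO1. Its changes of 0.18, -0.16 and 0.15 (SE 0.06 each) had adjusted p-values of 0.0216, 0.0262 and 0.0388, and each was lost in at least 4 leave-outs, among them those of every siControl library. The NUF2 value in siSLC25A1 was 0.08 without its replicate 1. CENPF, a large protein of the outer kinetochore, was at 226, 241 and 223 CPM in siControl, 301, 285 and 289 in siSLC25A1, 239, 219 and 231 in siACLY, and 238, 264 and 195 in siACO1. The siSLC25A1 libraries stood above all others, with a rise of 0.34 ± 0.09 (adjusted p = 0.0164) that was not called without siSLC25A1 replicate 1 (0.32, adjusted p = 0.0826) or siControl replicate 1 or 3.

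CENPE, a kinetochore motor that moves chromosomes to the spindle equator, was at 64.2, 65.9 and 64.2 CPM in siControl, 74.8, 78.6 and 68.7 in siSLC25A1, 63.3, 62.2 and 60.0 in siACLY, and 61.4, 63.4 and 44.3 in siACO1. It was called in no comparison with siControl, and its siACO1 value was -0.20 ± 0.11, with replicate 3 below its fellows. Without that library the siACO1 value of CENPE was -0.06 (adjusted p = 0.414). CENPA, the centromeric histone, was higher in siSLC25A1 (0.22 ± 0.07, adjusted p = 0.014), as was NDC80 (0.18 ± 0.05, adjusted p = 0.0113), which was also higher in siACO1 (0.14 ± 0.05, adjusted p = 0.0262). The CENPA and NDC80 calls in siSLC25A1 were lost without its replicate 1, and also without siControl replicate 2 for CENPA and replicate 1 for NDC80. The NDC80 call in siACO1 was lost without siControl replicate 1 or siACO1 replicate 1.

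Of the 6 kinesin motors, 4 were higher in siSLC25A1, 2 were higher and 3 lower in siACLY, and 3 were higher in siACO1. KIF11 (Eg5, chr10:92593286-92655395), the motor that pushes spindle poles apart, was at 131, 133 and 132 CPM in siControl, 154, 139 and 134 in siSLC25A1, 110.4, 103 and 94.6 in siACLY, and 153, 157 and 139.7 in siACO1. It fell by 0.36 ± 0.06 in siACLY (adjusted p = 1.59e-05) and rose by 0.18 ± 0.06 in siACO1 (adjusted p = 0.0113), a rise not called without siACO1 replicate 2. KIF20A (MKLP2), which brings the passenger complex to the central spindle, was at 121, 119 and 121 CPM in siControl, 122, 107 and 106 in siSLC25A1, 104, 92.2 and 88.9 in siACLY, and 134, 127 and 126 in siACO1. It fell by 0.34 ± 0.05 in siACLY (adjusted p = 1.78e-05), and it was the only member with a negative value in siSLC25A1 (-0.11 ± 0.05, adjusted p = 0.179). Without siSLC25A1 replicate 1 that value was -0.18 (adjusted p = 0.024) and was called lower.

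KIF23 (MKLP1), the motor of the centralspindlin complex, was at 99.6, 96.0 and 96.7 CPM in siControl, 129, 118 and 114 in siSLC25A1, 94.5, 87.2 and 84.8 in siACLY, and 107, 112 and 108 in siACO1. It rose by 0.31 ± 0.05 in siSLC25A1 (adjusted p = 2.56e-05) and by 0.16 ± 0.05 in siACO1 (adjusted p = 0.00837). Its fall of 0.13 ± 0.05 in siACLY (adjusted p = 0.0363) was lost in 5 of 6 leave-outs, all but that of siACLY replicate 1. The chromosome motor KIF4A had values of 0.18, 0.14 and 0.14, all called higher, but 27.3% of its 31-base stretches occur elsewhere and each call was lost in 3 or more leave-outs. KIF2C (MCAK), which depolymerises microtubules, was higher in siSLC25A1 (0.16 ± 0.05, adjusted p = 0.0143) and siACLY (0.16 ± 0.05, adjusted p = 0.00828). KIF14, a motor of the midbody, was higher in siSLC25A1 (0.25 ± 0.07, adjusted p = 0.0202). The KIF2C and KIF14 calls in siSLC25A1 were lost without siSLC25A1 replicate 1 or siControl replicate 2, and that of KIF14 also without siControl replicate 3. In siACLY the KIF2C call did not stand when siControl replicate 2 or siACLY replicate 1 was left out.

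The spindle microtubule proteins gave 1 of 6 higher in siSLC25A1, 1 of 6 lower in siACLY and 0 of 6 in siACO1. These shares of 16.7%, 16.7% and 0% were near the 19.6% of all genes called in siSLC25A1 and below the 36.7% and 37.1% in siACLY and siACO1. TPX2, which activates AURKA and nucleates spindle microtubules, was higher in siSLC25A1, at 399 ± 29.2 CPM against 341 ± 6.90 in siControl (0.23 ± 0.04, adjusted p = 0.000451). DLGAP5 (HURP), which stabilises the fibres at kinetochores, was at 78.2, 81.7 and 78.7 CPM in siControl, 90.6, 82.9 and 80.1 in siSLC25A1, 66.9, 66.7 and 64.2 in siACLY, and 73.1, 76.7 and 76.8 in siACO1. It fell by 0.27 ± 0.05 in siACLY (adjusted p = 5.51e-05), where the 3 libraries lay close together below all others. ASPM, a spindle pole protein, was at 128, 137 and 125 CPM in siControl, 168, 152 and 155 in siSLC25A1, 118, 106 and 104 in siACLY, and 132, 139 and 103 in siACO1. Its siSLC25A1 libraries lay above and its siACLY libraries below siControl, yet neither 0.28 ± 0.10 (adjusted p = 0.0748) nor -0.25 ± 0.10 (adjusted p = 0.0729) was called.

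HMMR, a microtubule protein of spindle assembly, had values of 0.14, 0.05 and 0.04 and was not called. PRC1, which bundles the microtubules of the central spindle, had 42 to 107 counts per library, and NUSAP1, which also bundles microtubules, 12 to 41. In the annotation 58.4% of the exon bases of PRC1 and 62.2% of those of NUSAP1 overlap other gene models, so both counts are uncertain. PRC1 was at 2.90, 1.83 and 2.86 CPM in siControl, 2.79, 2.58 and 2.94 in siSLC25A1, 2.41, 1.63 and 1.97 in siACLY, and 3.06, 2.63 and 3.08 in siACO1, with wide overlap of the first 2 groups. NUSAP1 had a value of 0.46 ± 0.35 in siSLC25A1 (adjusted p = 0.406), the highest of the 38 members, and one of -0.02 without siSLC25A1 replicate 1.

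ANLN (anillin, chr7:36389806-36453791), a scaffold of actin, myosin and septins in the cleavage furrow, gave the largest change of the 38 members in siACLY and in siACO1. It was at 461, 483 and 485 CPM in siControl, 609, 543 and 552 in siSLC25A1, 378, 364 and 339 in siACLY, and 272, 286 and 264 in siACO1. None of the 4 groups overlapped another. ANLN rose by 0.25 ± 0.05 in siSLC25A1 (adjusted p = 0.000156), fell by 0.40 ± 0.05 in siACLY (adjusted p = 6.66e-08) and fell by 0.80 ± 0.05 in siACO1 (adjusted p = 7.46e-14). ECT2, the exchange factor that activates RhoA at the furrow, was lower in siACLY (-0.15 ± 0.06, adjusted p = 0.0481), a call lost in 5 of 6 leave-outs, all but that of siACLY replicate 1, and its siACO1 value was -0.07 (adjusted p = 0.381).

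MKI67 (Ki-67, chr10:128096659-128126385), the proliferation marker that coats mitotic chromosomes, was at 334, 342 and 358 CPM in siControl, 501, 471 and 434 in siSLC25A1, 338, 309 and 339 in siACLY, and 391, 398 and 282 in siACO1. All siSLC25A1 libraries stood above all others, while siACO1 replicate 3 lay below every other library. The rise of 0.44 ± 0.12 in siSLC25A1 had an adjusted p of 0.0343 and was not called in 5 of 6 leave-outs, all but that of siSLC25A1 replicate 3. In siACO1 the MKI67 value was 0.05, and without replicate 3 it was 0.19 (adjusted p = 0.00294) and called higher. TOP2A, the topoisomerase that untangles sister chromatids, was at 627, 653 and 646 CPM in siControl, 728, 666 and 674 in siSLC25A1, 602, 576 and 555 in siACLY, and 674, 699 and 603 in siACO1. It fell by 0.15 ± 0.05 in siACLY (adjusted p = 0.0126), a call lost without siControl replicate 2 or siACLY replicate 3, and its siSLC25A1 value was 0.10 ± 0.05 (adjusted p = 0.138).

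Per kilobase of exon, the members spanned a wide range of levels in siControl. CDC20 stood at 158 CPM per kb (uncertain counts), CCNB1 at 128, UBE2C at 124, TOP2A at 99.7, TPX2 at 94.7 and ANLN at 79.2. At the low end were CDC25C at 7.03 and CENPE at 6.86. PRC1 at 0.458 and NUSAP1 at 0.239 were lower still, but most of their exon bases overlap other gene models, so these levels are uncertain. Both the abundant UBE2C and the scarce CDC25C were among the 6 called members with the largest rises in siSLC25A1.

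Contrasts between knockdowns were taken from the same fit of 12 libraries. In siSLC25A1 against siACLY, 31 of 38 members were called, all 31 higher in siSLC25A1, against 33.8% of all genes tested (17.5% higher and 16.3% lower). All 38 values were positive, with a median of 0.32 against -0.0132 over all genes tested, and 25 of the 31 calls stood under every leave-out. When siSLC25A1 replicate 1 was left out, the median was 0.25, and AURKB, KIF2C, KIF4A and NUSAP1 had negative values. In that fit 25 members were called, all higher, against 28.2% of all genes tested. ANLN differed by 0.66 ± 0.05 (adjusted p = 7.61e-12), CCNA2 by 0.55 ± 0.05 (adjusted p = 1.65e-09), ASPM by 0.53 ± 0.10 (adjusted p = 0.00182) and MKI67 by 0.51 ± 0.12 (adjusted p = 0.0109). No siSLC25A1 library overlapped siACLY for any of these 4 genes. The 7 members not called were CENPE, AURKB, KIF2C, KIF4A, NUSAP1, PRC1 and HMMR.

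In siSLC25A1 against siACO1, 20 of 38 were called, 19 higher and 1 lower, against 42.1% of all genes tested (21.8% higher and 20.3% lower). ANLN was higher by 1.05 ± 0.05 (adjusted p = 7.99e-17), UBE2C by 0.53 ± 0.04 (adjusted p = 3.3e-11), CENPE by 0.40 ± 0.11 (adjusted p = 0.0116) and MKI67 by 0.39 ± 0.12 (adjusted p = 0.0288). KIF20A was the lower member, by -0.21 ± 0.05 (adjusted p = 0.00306). Without siACO1 replicate 3 the differences of CENPE and MKI67 were both 0.25, with adjusted p-values of 0.000126 and 0.000178. Without siSLC25A1 replicate 1, 12 members (31.6%) were called, 9 higher and 3 lower, against 37.0% of all genes tested, and MKI67 was lost without replicate 1 or 2 of siSLC25A1 or with library totals as the scaling. In siACLY against siACO1, 20 of 38 were called, 3 higher and 17 lower in siACLY, against 42.1% of all genes tested (21.4% higher and 20.7% lower). KIF11 differed by -0.54 ± 0.06 (adjusted p = 2.06e-08), CCNA2 by -0.52 ± 0.05 (adjusted p = 1.97e-09), PRC1 by -0.52 ± 0.19 (adjusted p = 0.0322, uncertain counts) and MAD2L1 by -0.45 ± 0.06 (adjusted p = 1.63e-07). The PRC1 call was lost without siACLY replicate 2 or 3 or siACO1 replicate 1 or 3. ANLN, UBE2C and KIF2C were the 3 higher members.

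Other genes of the same pathways were taken from lists that hold no member, with 160 of 168 listed genes tested. Over 118 tested mitotic partners, 33 were higher and 6 lower in siSLC25A1, 6 higher and 46 lower in siACLY, and 27 higher and 13 lower in siACO1, with medians of 0.11, -0.10 and 0.02. The shares called were 33.1%, 44.1% and 33.9%, against 19.6%, 36.7% and 37.1% of all genes tested, so that in siACO1 the partners lay below the background. The lists that follow are parts of these 118 genes up to the transcription factors, and their counts stand against the same 3 background shares. The CDK1 switch regulators (14 tested) gave 4 higher and 2 lower, 0 higher and 7 lower, and 2 higher and 2 lower in the same order. These are 42.9%, 50% and 28.6% of the list, the last below the background. In siSLC25A1 the centriole kinase PLK4 rose by 0.30 ± 0.07 (adjusted p = 0.00136), CCNF by 0.23 ± 0.06, and ENSA, which inhibits the phosphatase that opposes CDK1, fell by 0.20 ± 0.05. In siACLY the phosphatase CDC25A fell by 0.45 ± 0.06 (adjusted p = 7.88e-07), PKMYT1 by 0.39 ± 0.06 (uncertain counts) and the kinase MASTL by 0.29 ± 0.06. In siACO1 CCNF was higher by 0.30 ± 0.06 and ENSA by 0.29 ± 0.05, and PKMYT1 was lower by -0.27 ± 0.06.

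The anaphase-promoting complex (15 tested) gave 1 higher and 2 lower, 0 higher and 3 lower, and 1 higher and 1 lower. These are 20%, 20% and 13.3% of its genes, near the background in siSLC25A1 and below it in siACLY and siACO1. FBXO5 (EMI1), which inhibits the complex, fell by 0.47 ± 0.06 in siACLY (adjusted p = 6.45e-07) and by 0.20 ± 0.06 in siACO1. The other called genes of this list were the subunits CDC23 (-0.17 in siSLC25A1, 0.20 in siACO1), ANAPC13 (-0.16) and CDC27 (0.12) in siSLC25A1, and the activator FZR1 (-0.26) and ANAPC11 (-0.21) in siACLY. Of 12 checkpoint and passenger partners, 2 were higher in siSLC25A1, 1 was higher and 3 lower in siACLY, and 2 were higher and 1 lower in siACO1. These are 16.7%, 33.3% and 25% of the list, near the background in siSLC25A1 and siACLY and below it in siACO1. ZWILCH rose by 0.32 ± 0.05 in siSLC25A1 (adjusted p = 7.55e-05), and CDCA8 (borealin) by 0.16 there and 0.17 in siACO1. MAD1L1, the checkpoint partner of MAD2L1, rose by 0.75 ± 0.12 in siACLY (adjusted p = 2.12e-05) and 0.61 ± 0.13 in siACO1 (adjusted p = 0.00033) from a low level of 4.77 ± 0.703 CPM. KNTC1 (-0.30) and HASPIN (-0.29) were lower in siACLY, and BUB3 (-0.16) was lower in siACO1.

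Kinetochore and centromere partners (23 tested) gave 9 higher and 1 lower in siSLC25A1, 2 and 6 in siACLY, and 6 and 2 in siACO1. The share called was 43.5% in siSLC25A1, and the 34.8% in each of siACLY and siACO1 lay near the background. HJURP, the chaperone that loads CENPA, rose by 0.40 ± 0.05 in siSLC25A1 (adjusted p = 2.98e-07), with CENPU at 0.33 and CENPI at 0.32. In siACO1 CENPQ fell by 1.05 ± 0.09 (adjusted p = 2.87e-10), from 13.4 ± 0.620 to 6.51 ± 0.467 CPM, while SPC24 rose by 0.51 ± 0.07 (adjusted p = 1.65e-06) and CENPT by 0.24. In siACLY SKA3 (-0.28) was lower and PMF1 (0.39, uncertain counts) was higher. Condensin, cohesin and separase (16 tested) gave 2 higher and 0 lower, 0 higher and 7 lower, and 3 higher and 2 lower. These are 12.5%, 43.75% and 31.25% of the list, below the background in siSLC25A1 and siACO1. ESPL1 (separase) had values of 0.20, -0.34 and 0.22, all called, and SMC2 fell by 0.40 ± 0.06 in siACO1 (adjusted p = 7.29e-06). NCAPG2 (0.26) was higher in siSLC25A1, SMC4 (-0.38, uncertain counts) and CDCA5 (-0.23) were lower in siACLY, and NCAPD2 (0.23) was higher in siACO1.

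Other kinesins, spindle and cytokinesis genes (20 tested) gave 12 higher and 0 lower in siSLC25A1, 1 and 9 in siACLY, and 8 and 1 in siACO1. CEP55, which recruits the abscission machinery to the midbody, rose by 0.28 ± 0.04 in siSLC25A1 (adjusted p = 3.38e-05), with CKAP2L at 0.25 and KIF20B at 0.22. KIF22 (-0.20), TACC3 (-0.20) and KIF20B (-0.19) were lower in siACLY. In siACO1 CDCA3 rose by 0.51 ± 0.05 (adjusted p = 1.12e-08), PSRC1 by 0.48 ± 0.05 (adjusted p = 3.64e-08) and CIT by 0.33 ± 0.08.

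The transcription factors of the cycle (MuvB, DREAM and E2F, 18 tested) gave 3 higher and 1 lower in siSLC25A1, 2 and 11 in siACLY, and 5 and 4 in siACO1. In siSLC25A1 the 22.2% called lay near the 19.6% of all genes tested. TFDP1, the dimer partner of the E2F factors, fell by 0.60 ± 0.04 in siSLC25A1 (adjusted p = 1.15e-11), from 207 ± 0.859 to 136 ± 7.00 CPM. E2F1 had changes of 0.24 ± 0.06 (adjusted p = 0.00211), -0.54 ± 0.06 (adjusted p = 1.87e-08) and -0.43 ± 0.06 (adjusted p = 7.19e-07). RB1 was higher in siSLC25A1 (0.30), E2F8 (-0.60) and LIN9 (-0.39) were lower in siACLY, and E2F7 (0.54) was higher and E2F4 (-0.23) lower in siACO1.

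Genes of the G1/S transition and of replication were mostly lower in siACLY and siACO1. Of 28 tested, 4 were higher and 1 lower in siSLC25A1, 0 higher and 20 lower in siACLY, and 1 higher and 16 lower in siACO1, with medians of 0.04, -0.27 and -0.28. In siSLC25A1 the share called was 17.9%, near the 19.6% of all genes tested, while 18.3% and 19.3% of all genes were lower in siACLY and siACO1. The siACO1 median of the members was 0.04, and the difference between the lists was not tested. PCNA, the sliding clamp, fell by 0.90 ± 0.07 in siACLY (adjusted p = 4.16e-08), followed by CCNE2 (-0.74) and UHRF1 (-0.61), both with uncertain counts. In siACO1 the origin licensing gene CDC6 fell by 0.62 ± 0.05 (adjusted p = 5.5e-11), MCM5 by 0.56 ± 0.08 and CCNE1 (cyclin E1) by 0.55 ± 0.06. In siSLC25A1 RRM2 (0.37, uncertain counts) and CDC45 (0.32) were higher and CCNE1 (-0.26) lower.

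**Figure D5:**
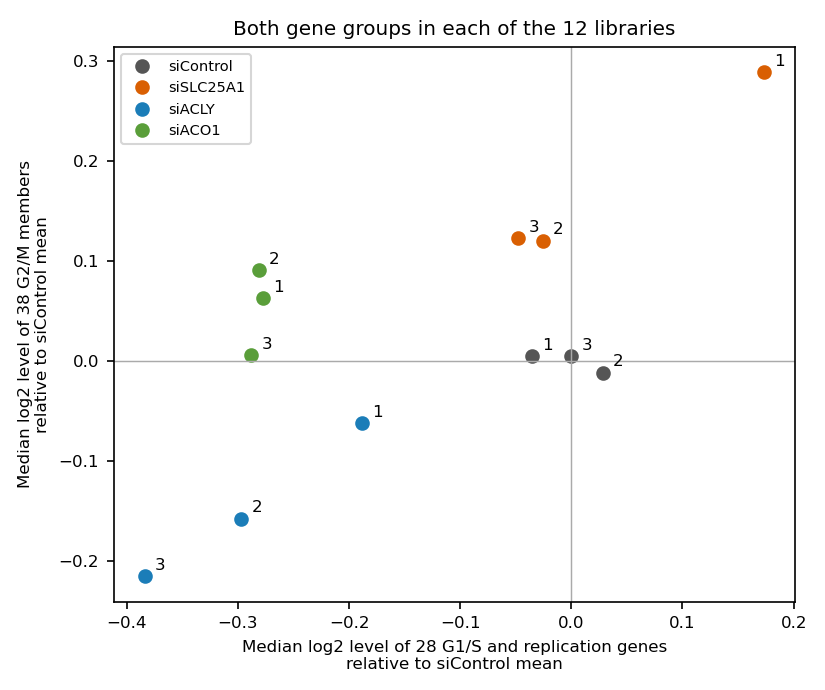
Median log2 level relative to the siControl mean of the 28 G1/S and replication genes (horizontal axis) and of the 38 G2/M members (vertical axis) in each of the 12 libraries, coloured by group and labelled by replicate. The 3 siACO1 libraries lie near -0.28 on the horizontal axis and between 0.01 and 0.09 on the vertical axis, the siACLY libraries are negative on both, and siSLC25A1 replicate 1 is the highest on both.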

How the data were processed

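Poly(A) RNA of MiaPaCa-2 cells was sequenced in 12 libraries, 3 in each of 4 siRNA groups taken from the labels. The authors deposited 1 table of raw counts per gene, whole numbers that were not normalized, with 1 column per library, per the file headers. The submitters' processing notes name CASAVA, FastQC, Trim Galore, STAR 2.7.0e and DESeq2 and the builds GRCh38 and GRCm39, without roles. The counting tool, the annotation release and the strand setting are not given in the sources used here, so reads of overlapping genes on opposite strands may not be separable.

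Symbols were matched for 62700 of 70116 identifiers (89.42%). The 16197 genes passing filterByExpr were fitted by group over the 12 libraries with TMM scaling and robust quasi-likelihood (edgeR 4.0.16, R 4.3.3), with 8 residual degrees of freedom and a common biological coefficient of variation of 4.885%. Tests were two-sided, with Benjamini-Hochberg adjustment over all genes tested. Scripts were tested on simulated data. The precision of each value follows from library totals of 24159424 to 43792811 counts and from 3 libraries a group.

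Gene places and exon lengths are from GENCODE 29 on GRCh38, which may differ from the annotation behind the counts. Counts were called uncertain where at least 20% of exon bases overlapped another gene, or 20% of 31-base stretches occurred in transcripts elsewhere. Promoter windows are from RefSeq. Members and lists were chosen with earlier results of these data known. Values in every library are given for the up to 6 called members with the largest change in each comparison with siControl, for those called in opposite directions in 2 of them, for 8 genes chosen for their role, and for the up to 4 with the largest change between knockdowns; of each partner list up to 3 called genes are named per comparison with siControl. For 1 partner gene that meets these criteria, no value is reported here. Alternatives were other scalings and filters, DESeq2 1.42.0, stricter thresholds, 2-group fits, a replicate block and leaving out each library.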

Additional observations from a re-analysis of the deposited data

How the results depend on the processing

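No called member changed direction under any setting run, and 4 of 20 calls in siSLC25A1 against siControl, 8 of 22 in siACLY against siControl and 4 of 16 in siACO1 against siControl stood under every setting. At an adjusted p under 0.01, 9 members were called in siSLC25A1 against siControl, 10 in siACO1 against siControl and 12 in siSLC25A1 against siACO1. Beside them, 12.0%, 26.9% and 31.4% of all genes tested were called in either direction, and of 38 members, 10 and 12 are at that background. Of the 10, 6 were higher and 4 lower, beside 12.4% and 14.5% of all genes. Of the 12, 11 were higher and 1 lower, beside 16.9% and 14.5%. With an adjusted p under 0.05 and an absolute log2 fold change of at least 0.25, the counts were 6, 4 and 10 in the same comparisons and 8 in siACLY against siControl. Beside 11.5%, 24.97%, 30.1% and 24.4% of all genes in either direction, all but the first lay below the background. By direction, the 10 were all higher (14.8% of all genes) and the 8 all lower (11.0%). The 4 were 2 higher and 2 lower (12.6% and 12.4%). Both are stricter thresholds on the same fit. With library totals in place of TMM, 11 members were called in siSLC25A1 against siACO1, the median of all genes moved to -0.06, and the cause was not tested; all genes called then split into 22.1% higher and 14.2% lower in siACLY against siControl, 22.1% and 15.1% in siACO1 against siControl, 13.8% and 19.9% in siSLC25A1 against siACLY and 17.8% and 24.4% in siSLC25A1 against siACO1, and members into 5 higher and 14 lower in siACLY against siControl. Leaving out 1 library gave 8 to 21 members in siSLC25A1 against siControl, beside 13.9% to 16.2% of all genes tested. In siSLC25A1 against siACO1 it gave 12 to 21, beside 36.4% to 40.3%. The lowest of both left out siSLC25A1 replicate 1. Leaving out replicate 2 or 3 of that group gave 19 and 21 against siControl, and 19 and 20 against siACO1. Each leave-out fit has 1 sample fewer than the main fit and so less power, and the cause of the differences was not tested. In siACLY against siControl the range was 15 to 22, beside 30.1% to 30.9%, and in siACO1 against siControl 11 to 19, beside 30.7% to 37.3%. The 11 of 38 called in siACO1 without siControl replicate 1 were near the 30.7% of all genes. It was 25 to 32 in siSLC25A1 against siACLY, beside 28.1% to 28.8%, and 16 to 22 in siACLY against siACO1, beside 36.3% to 41.4%.

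With the replicate number as a block, the counts were 21, 23 and 17 against siControl for siSLC25A1, siACLY and siACO1. Beside them, 20.2%, 37.3% and 37.6% of all genes tested were called, and the siACO1 count of 17 of 38 was near its background. The blocked counts were 32 for siSLC25A1 against siACLY, 20 for siSLC25A1 against siACO1 and 21 for siACLY against siACO1, beside 34.5%, 42.6% and 42.4%. After each gene's group mean was subtracted, correlations across genes between same-numbered libraries of different groups ran from -0.034 to 0.067 over 18 pairs. Of these, 0 were over 0.1. Between libraries of other numbers and groups they ran from -0.072 to 0.071 over 36 pairs. Of 12 libraries, 6 correlated best with one of their own number. These values show no clear pairing by number.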

Other observations

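Genes induced by p53 were described by a list of 14 tested genes. In siSLC25A1 3 were higher and 1 lower, in siACLY 9 were higher and 1 lower, and in siACO1 3 were higher and 4 lower, with medians of -0.0013, 0.21 and -0.07. The shares called were 28.6%, 71.4% and 50%, against 19.6%, 36.7% and 37.1% of all genes tested. CDKN1A (p21), an inhibitor of cyclin-dependent kinases, was at 1.48, 1.00 and 1.32 CPM in siControl, 4.29, 3.66 and 3.77 in siSLC25A1, 4.11, 3.37 and 3.32 in siACLY, and 0.97, 1.11 and 1.03 in siACO1. It rose by 1.63 ± 0.19 in siSLC25A1 (edgeR, adjusted p = 1.46e-07) and by 1.52 ± 0.18 in siACLY (adjusted p = 1.43e-07). It was thus higher in the 2 knockdowns in which the G2/M members had medians of 0.18 and -0.15. FAS (0.75 and 0.57) and GADD45A (0.74 and 0.35) were higher in the same 2 groups. In siACO1 GADD45A was lower (-0.35), and TP53INP1 (0.44) and PLK2 (0.38) were higher, as was TP53INP1 in siACLY (0.68).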
